A study of Mus musculus with 43 samples.

Results

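*Pik3cd* and *Pik3r1*, the genes of the catalytic and the main regulatory subunit of phosphoinositide 3-kinase delta (PI3Kδ), are 2 of the 2078 metabolic genes knocked out in a pooled CRISPR screen of transferred CD8+ T cells. They were selected by name, because sgRNAs of both genes had risen in anti-PD-1 groups of the same table, and each is covered by 5 sgRNAs, which makes 10 of the 10640 sgRNAs. Donor cells were OT-I CD8+ T cells, which recognize an ovalbumin peptide, taken from mice that express Cas9 from the Rosa26 locus. The recipients were Rosa26-Cas9 mice with orthotopic KPC_OVA tumours, a pancreatic ductal adenocarcinoma line that carries ovalbumin, placed in the head of the pancreas. The cells received a lentiviral sgRNA library with a CD90.1 reporter at a high multiplicity of infection, so that a cell could carry more than 1 sgRNA. The mice were given anti-PD-1 or control IgG from the day of adoptive cell transfer (ACT). CD90.1+ cells were sorted 7 days after ACT from primary tumour, lung, liver, peritoneal metastases, spleen, draining lymph node and nondraining lymph node, and an aliquot kept on the day of transfer (T0) was the reference. All groups share the Cas9 background, the OT-I receptor and the sgRNA library, and they differ in organ and antibody. The number of mice behind a library is not given in the sources used here, so p-values measure the spread between libraries, which may be partly technical.

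PI3Kδ is a lipid kinase found mainly in leukocytes. Its catalytic subunit, encoded by *Pik3cd*, phosphorylates phosphatidylinositol-4,5-bisphosphate to the trisphosphate that recruits Akt to the membrane. Its regulatory subunit, encoded by *Pik3r1*, stabilizes and restrains the catalytic subunit, and its SH2 domains bring the enzyme to phosphorylated receptors and adaptors. In T cells the kinase acts downstream of the antigen receptor, costimulation and cytokine receptors, and it is known for its part in growth, metabolism and effector differentiation.

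Of 43 samples, 41 libraries had values, which left 1 library in liver anti-PD-1, 2 each in liver IgG and peritoneal metastases IgG, and 3 in T0 and in every other group. The value of an sgRNA is a signal, that is a read count that the authors normalised to the 250 nontargeting sgRNAs and corrected for batch, and the read depth behind it is unknown. The median nontargeting sgRNA had a signal of 194 to 297 at T0 and of 103 to 261 in the organs outside the lymph nodes. The level of a gene is the mean of log2(signal + 1) over its 5 sgRNAs less the same value of the median nontargeting sgRNA in that library, so that 0 is the level of a typical nontargeting sgRNA. A change is the group mean of this level minus the T0 mean. It states how the abundance of these sgRNAs, relative to the median nontargeting sgRNA of the same library, differed from that in the transferred pool. It is not itself a share of the sorted cells. Several libraries of 1 replicate number share a lowest value for an sgRNA, here taken as not detected. This held for 2.78% to 42.6% of sgRNAs in the 26 libraries outside the lymph nodes and for 45.4% to 91.6% in the 12 lymph node libraries, and the results of the lymph nodes are therefore given apart. Replicate 2 of peritoneal metastases under anti-PD-1 carries spleen as its tissue label and was used by its title.

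At T0, before transfer, neither gene stood high. The *Pik3cd* level was 0.47, 0.46 and -0.61 in replicates 1, 2 and 3, and the *Pik3r1* level was 0.72, 0.47 and -0.04. Replicate 3 was low for both genes, with *Pik3cd* at rank 2067 and *Pik3r1* at rank 1684 of 2078 genes, against ranks 171 to 522 in replicates 1 and 2. The sgRNAs of a gene differed widely in the pool. The *Pik3cd* sgRNA s_02627 had a T0 signal of 1479, 1186 and 353, which placed its mean at rank 101 of all sgRNAs, whereas s_02626 had 173, 266 and 112, at rank 9043. Among the *Pik3r1* sgRNAs, s_02635 had the highest T0 signal with 709, 922 and 436, and s_02631 had the lowest mean with 243, 178 and 124.

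Under control IgG, cells carrying *Pik3cd* sgRNAs stood above T0 in all 5 organs outside the lymph nodes. In primary tumour IgG the *Pik3cd* level was 1.48, 2.0 and 0.95 in replicates 1 to 3, in lung IgG 0.75, 2.85 and 2.62, and in spleen IgG 2.61, 3.20 and 3.09. The liver IgG libraries had 3.11 and 1.53 in replicates 2 and 3, and those of peritoneal metastases IgG had 1.94 and 1.11. All 13 libraries lay above the highest T0 library. The spleen, a lymphoid organ outside the tumour-bearing sites, had the tightest values, and *Pik3cd* ranked first of all genes in each of its 3 IgG libraries. Lung IgG replicate 1 was the lowest library, and there s_02628 was at the shared lowest value (signal 1.92). In that library 42.6% of all sgRNAs were at the lowest value, and this was the only 1 of the 260 values of the 10 sgRNAs outside the lymph nodes that was.

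*Pik3r1* stood above T0 in the same organs, with a mean of 2.01 ± 0.51 (SD, n = 13) over the IgG libraries against 2.10 ± 0.87 for *Pik3cd*. Its IgG levels were 1.42, 1.57 and 1.15 in primary tumour, 2.40, 1.68 and 2.61 in lung and 1.88, 2.36 and 2.47 in spleen, each in replicates 1 to 3. In liver IgG they were 2.79 and 2.22 and in peritoneal metastases IgG 1.52 and 2.04 in replicates 2 and 3. Again all 13 libraries lay above every T0 library. Of the 2078 genes, 3 (0.144%) had all 13 IgG libraries above every T0 library. They were *Pik3cd*, *Pik3r1* and *Acsl5*, an acyl-CoA synthetase named after its values were seen. With the anti-PD-1 libraries added, *Pik3cd* and *Pik3r1* were the only genes (0.0962%) above T0 in all 26, a description, since part of those libraries had served to select them.

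**Figure D1:**
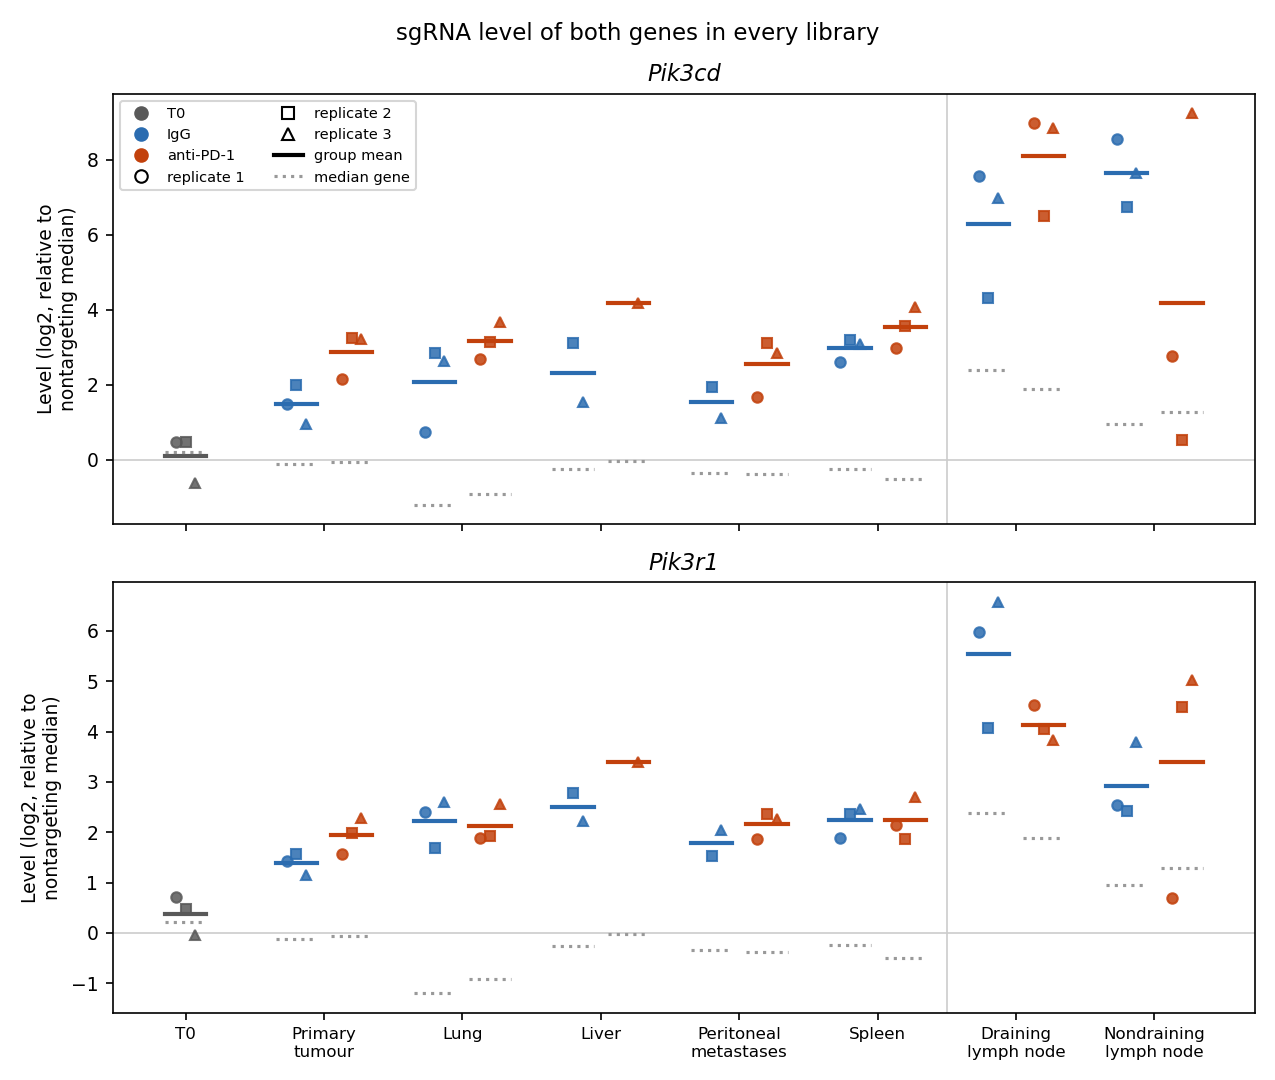
Level of *Pik3cd* (top) and *Pik3r1* (bottom) in each of the 41 libraries, in log2 units relative to the median nontargeting sgRNA, with 1 point per library (shape: replicate number, colour: T0, IgG or anti-PD-1), the group mean as a solid line and the mean of the median gene as a dotted line. Outside the lymph nodes (left of the vertical line) every library lies above the T0 libraries, from 0.75 to 4.17 for *Pik3cd* and from 1.15 to 3.39 for *Pik3r1*, while the lymph node libraries spread from 0.53 to 9.24 and from 0.70 to 6.58.

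Averaged over the 5 IgG organs, the *Pik3cd* change was 1.97 (SE 0.90) and the *Pik3r1* change 1.64 (SE 0.68), the largest and the second largest of 2078 genes, whose median was -0.61. In the limma fit of all 41 libraries neither passed the test, with Benjamini-Hochberg adjusted p of 0.20 for *Pik3cd* and 0.126 for *Pik3r1*, and 0 genes (0%) were called higher there. At an unadjusted p both were below 0.05. The rise that selected the genes was measured from the same T0 libraries, so tests against T0 are not fully independent of the selection. The spread that this fit assigns to *Pik3cd* and *Pik3r1* includes that of the lymph nodes. With the lymph node libraries left out, the changes were the same and their standard errors fell to 0.48 and 0.38. The limma adjusted p was then 0.00205 for *Pik3cd* and 0.00123 for *Pik3r1*, and 3 of 2078 genes (0.144%) were called higher, the other being the diacylglycerol kinase *Dgkz* (1.41, adjusted p = 0.0211). With T0 replicate 3 left out as well, *Pik3cd* changed by 1.61 (adjusted p = 0.0584) and *Pik3r1* by 1.43 (adjusted p = 0.0326).

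Single IgG groups showed the same order. *Pik3cd* changed by 2.86 in spleen IgG (SE 1.14, adjusted p = 0.116), 2.22 in liver IgG (adjusted p = 0.583) and 1.97 in lung IgG (adjusted p = 0.249), and ranked first of all genes in each. In peritoneal metastases IgG it also ranked first, with a change of 1.42, and in primary tumour IgG it ranked second with 1.37, behind *Dgkz* with 1.41. *Pik3r1* ranked between 2 and 3 in all 5, with changes of 1.0 in primary tumour, 1.84 in lung, 2.12 in liver, 1.39 in peritoneal metastases and 1.85 in spleen. None of these passed the test over all libraries. With the lymph nodes left out, both genes were called in lung, liver and spleen IgG (limma adjusted p from 0.000589 to 0.0239) and neither in primary tumour IgG (0.20 and 0.297) or peritoneal metastases IgG (0.237 and 0.0995). In that fit 0.144% of genes were called higher in lung IgG, namely *Pik3cd*, *Pik3r1* and the phospholipid synthesis gene *Cept1*, and 0.0962% in liver and in spleen IgG, where *Pik3cd* and *Pik3r1* were the only genes called. In primary tumour and peritoneal metastases IgG 0% were.

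The T0 library of the same replicate number served as a second reference, since libraries of 1 number share their lowest values. *Pik3cd* then changed by 1.15 on average over the 3 IgG libraries of number 1 outside the lymph nodes, by 2.16 over the 5 of number 2 and by 2.47 over the 5 of number 3. *Pik3r1* changed by 1.17, 1.51 and 2.13, respectively. All 13 single differences were above 0 for both genes, from 0.29 to 3.70 for *Pik3cd* and from 0.70 to 2.65 for *Pik3r1*. The change was thus present within every replicate number and was largest in number 3, where the T0 level was low.

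In peritoneal metastases under anti-PD-1, a group that did not serve to select the genes, the *Pik3cd* level was 1.68, 3.12 and 2.85 and the *Pik3r1* level 1.87, 2.37 and 2.26. The T0 libraries, from which the changes are taken, did have a part in the selection. The changes were 2.45 (SE 1.14, limma adjusted p = 0.229) and 1.78 (SE 0.87, adjusted p = 0.278), ranks 1 and 2 of all genes, and with the lymph nodes left out the adjusted p was 0.00312 and 0.00717, at 0.144% of genes called. Without replicate 2, whose tissue label names spleen, the changes over all libraries were 2.16 and 1.68. Leaving it out was not run in the fit without the lymph nodes. Replicate 2 was the highest library of the group for both genes. If its tissue label were right, it would belong to spleen anti-PD-1, which did serve to select the genes. For the other anti-PD-1 organs, which did serve to select them, the values are a description. *Pik3cd* had levels of 2.16, 3.24 and 3.23 in primary tumour, 2.69, 3.15 and 3.68 in lung, 2.99, 3.57 and 4.07 in spleen and 4.17 in the single liver library. *Pik3r1* had 1.57, 1.98 and 2.29 in primary tumour, 1.89, 1.93 and 2.57 in lung, 2.15, 1.86 and 2.71 in spleen and 3.39 in liver. *Pik3cd* was first of all genes in 11 of the 13 anti-PD-1 libraries outside the lymph nodes and in 6 of the 13 IgG libraries.

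Ordered by mean level outside the lymph nodes, *Pik3cd* was lowest in primary tumour IgG (1.48 ± 0.52, SD, n = 3) and peritoneal metastases IgG (1.53 ± 0.59, n = 2), followed by lung IgG (2.07 ± 1.15, n = 3), liver IgG (2.32 ± 1.12, n = 2), peritoneal metastases anti-PD-1 (2.55 ± 0.77, n = 3), primary tumour anti-PD-1 (2.87 ± 0.62, n = 3), spleen IgG (2.97 ± 0.31, n = 3), lung anti-PD-1 (3.17 ± 0.50, n = 3), spleen anti-PD-1 (3.54 ± 0.54, n = 3) and the liver anti-PD-1 library at 4.17. Each neighbouring pair in this order overlapped in its library values except the last, where liver anti-PD-1 has a single library. *Pik3r1* ran from 1.38 ± 0.21 (n = 3) in primary tumour IgG over 2.24 ± 0.32 (n = 3) in spleen IgG and 2.24 ± 0.43 (n = 3) in spleen anti-PD-1 to 2.50 ± 0.40 (n = 2) in liver IgG and 3.39 in liver anti-PD-1, with the same exception. Averaged over both antibodies, the 10 pairwise differences between organs ran from -1.22 to 1.21 for *Pik3cd* and from -1.28 to 0.97 for *Pik3r1*, as a description. Over the IgG groups alone, which did not serve to select the genes, neither gene passed a test of the 5 organs (limma F-test, F = 0.535 for *Pik3cd* and 0.459 for *Pik3r1*, adjusted p of 1 for both, with 0% of genes called). With the lymph nodes left out, F was 1.85 (adjusted p = 0.485) and 1.46 (adjusted p = 0.582), with 0.722% of genes called. Per the methods, the deposited values had been corrected for batch between organs, which can remove differences between organs. Neither the order nor these tests can therefore show that the organs were alike.

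Anti-PD-1 and IgG were compared within each organ. The *Pik3cd* level was higher under anti-PD-1 by 1.40 in primary tumour, 1.10 in lung, 1.85 in liver, 1.02 in peritoneal metastases and 0.57 in spleen, a mean of 1.19 over these 5 organs. The size rested in part on single libraries, since the difference was 0.44 in lung without lung IgG replicate 1, 1.06 in liver without liver IgG replicate 3, 0.61 in peritoneal metastases without IgG replicate 3 and 0.31 in spleen without anti-PD-1 replicate 3. The *Pik3cd* libraries of both antibodies overlapped in lung, peritoneal metastases and spleen and did not in primary tumour and liver. In liver, where *Pik3r1* did not overlap either, this sets 1 library against 2. The share of all genes without overlap was not counted, so the overlap is a description. In 4 of the 5 organs the anti-PD-1 values had served to select the gene, so those 4 differences are given with no test. In peritoneal metastases, which by the sample titles had no part in the selection, the difference had an SE of 1.27 and a limma adjusted p of 0.998. *Pik3r1* differed by 0.57 in primary tumour, -0.10 in lung, 0.89 in liver, 0.39 in peritoneal metastases (SE 0.97, adjusted p = 0.998) and 0.00 in spleen, with a mean of 0.35. Over all 7 organs, lymph nodes included, the mean difference was 0.62 for *Pik3cd* and 0.12 for *Pik3r1*, again as a description.

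The 10 sgRNAs did not contribute evenly. Of the *Pik3cd* sgRNAs, s_02627 rose from its T0 signals of 353 to 1479 to 1044 to 6511 in the IgG libraries outside the lymph nodes, and the anti-PD-1 libraries held 2141 to 7712. Its relative level lay above every T0 library in all 26. In spleen anti-PD-1 replicate 1 it was the most abundant of the 10640 sgRNAs, the only 1 of the 26 libraries topped by an sgRNA of either gene. Other sgRNAs topped the rest, among them a nontargeting sgRNA in spleen anti-PD-1 replicate 3. The rarer s_02626 was also above every T0 library in all 26, with signals of 144 to 1915 in IgG libraries and 389 to 2343 in anti-PD-1 libraries. s_02629 and s_02630 were above in 25 and 24 libraries, and their largest changes of 4.52 and 5.51 were those of the single liver anti-PD-1 library. s_02628 was above in 23 libraries and had the smallest change of the gene in 8 of 10 groups. Its mean change was 0.99 over the IgG groups and 2.53 over the anti-PD-1 groups, and lung IgG, where 1 library did not detect it, was its lowest group at -0.64.

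For *Pik3r1*, s_02633 had the largest change of the gene in all 10 groups outside the lymph nodes. Its T0 signal was 836, 505 and 180, and its changes ran from 1.89 in primary tumour IgG to 5.05 in liver anti-PD-1. All 26 libraries were above T0. In contrast, s_02631 had changes from -0.13 in spleen anti-PD-1 to 1.70 in liver IgG and was above every T0 library in 21 of 26 libraries. s_02634 had a mean change of 0.98 over the IgG groups and of 1.95 over the anti-PD-1 groups, s_02632 had 1.60 and 2.16, and s_02635 had 1.57 and 1.64. All 5 *Pik3cd* sgRNAs had a higher change under anti-PD-1 than under IgG in each of the 5 organs. Among the *Pik3r1* sgRNAs this held in 5 organs for s_02632 and s_02634, in 3 for s_02633 and s_02635 and in 2 for s_02631. These are descriptions, since the anti-PD-1 values of 4 of the 5 organs had served to select the genes. The sgRNAs of a gene also share the same libraries, and the share of all sgRNAs with this pattern was not counted.

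**Figure D2:**
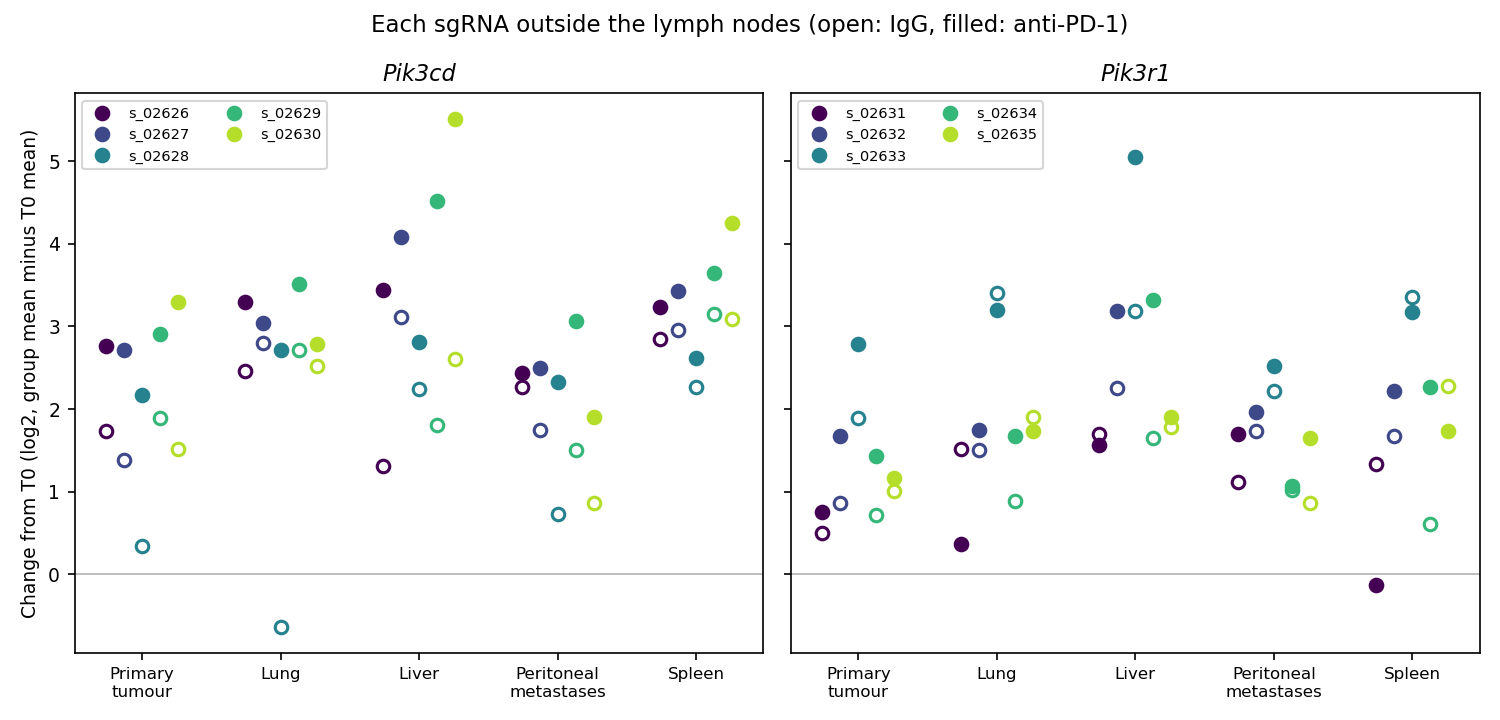
Change from T0 of each *Pik3cd* sgRNA (left) and *Pik3r1* sgRNA (right) in the 5 organs outside the lymph nodes, in log2 units, with 1 point per group mean (open: IgG, filled: anti-PD-1). The points lie above 0 except s_02628 in lung IgG at -0.64 and s_02631 in spleen anti-PD-1 at -0.13, and s_02633 is the highest *Pik3r1* sgRNA in every group.

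Tested singly over all 10640 sgRNAs in the fit of all libraries, 0 of the 10 were called higher over the 5 IgG organs, and 0% of all sgRNAs were. The changes were 2.81 for s_02633 (SE 1.42, limma adjusted p = 0.466) and 2.40 for s_02627 (SE 1.19, adjusted p = 0.431), ranks 1 and 3. With the lymph nodes left out, s_02627 (adjusted p = 0.00508), s_02629 (0.0396) and s_02633 (0.00642) were called, and these were all 3 sgRNAs (0.0282%) called higher in the library by limma. Across the 26 libraries outside the lymph nodes, 3 of 10640 sgRNAs (0.0282%) had every library above every T0 library, and they were s_02626, s_02627 and s_02633. This count includes the anti-PD-1 libraries that served to select the genes. Over the 13 IgG libraries alone it was 8 sgRNAs (0.0752%), among them the same 3.

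The lymph nodes were sparse. At most 35.5% of sgRNAs had a signal of at least 100 in any of the 12 libraries, and 5.16% in the lowest, against 46.1% to 76.2% outside the lymph nodes and 95.2% to 99.4% at T0. The nontargeting median fell to 0 to 1.39 there, so a level relative to it is a distance from undetected sgRNAs and not from a typical one. A count of detected sgRNAs does not use that median, and a signal of at least 100 was taken as detected after the values had been seen. *Pik3cd* sgRNAs were detected in 37 of 60 values (61.7%), the highest of 2078 genes (0.0481% had as many), against a median gene of 12 of 60 and 19.6% for nontargeting sgRNAs. *Pik3r1* sgRNAs were detected in 22 of 60 values (36.7%), rank 35, and 2.36% of genes had as many or more. With detection set at 10 or 500 *Pik3cd* remained first, with 38 and 34 values, and *Pik3r1* was at ranks 32 and 31.

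Detection in the lymph nodes followed the sgRNAs that were high elsewhere. s_02627 was detected in 10 of 12 libraries, with signals of 2080, 2836 and 1549 in draining lymph node IgG, 3991, 5563 and 4916 in draining lymph node anti-PD-1, 7907, 2725 and 4582 in nondraining lymph node IgG and 3.15, 1.43 and 1271 in nondraining lymph node anti-PD-1. s_02633 was also detected in 10, with 4754, 1304 and 1146, then 2919, 2268 and 1040, then 6.25, 6281 and 3025, then 16.3, 4987 and 899 in the same order. Only 13 sgRNAs of the library (0.122%) were detected as often as these. s_02629 was detected in 9 libraries and s_02626 in 8, whereas s_02631 was detected in 1, draining lymph node IgG replicate 2 with 1025, and s_02634 in 2.

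**Figure D3:**
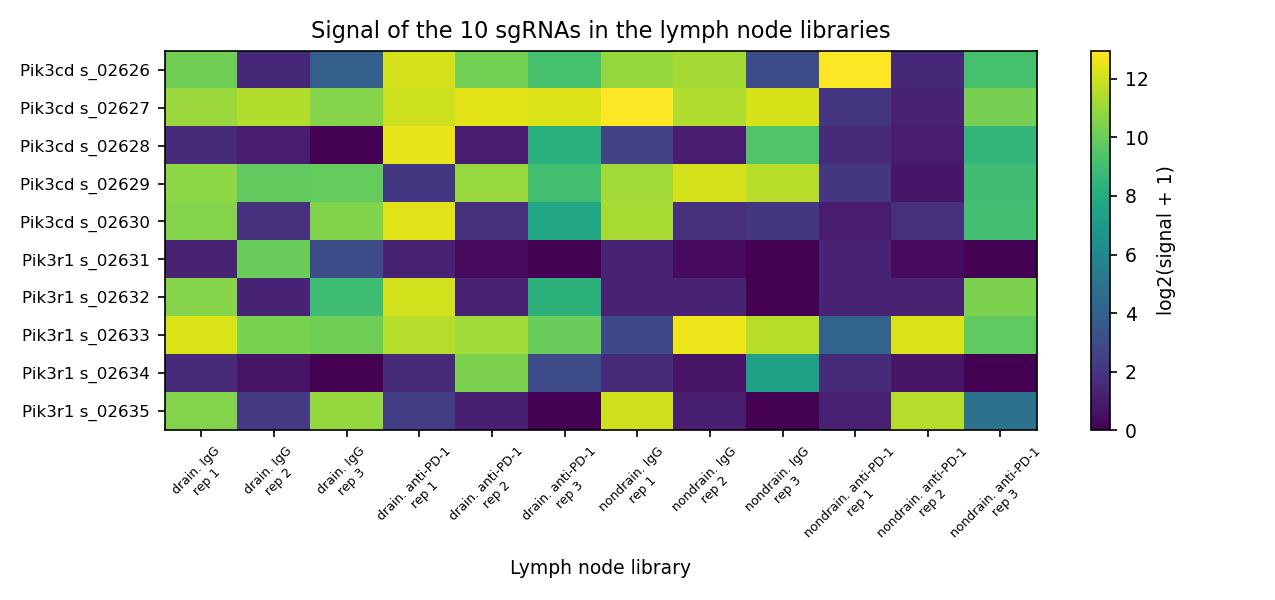
Signal of the 10 sgRNAs (rows) in the 12 lymph node libraries (columns), as log2(signal + 1) in colour. s_02627 and s_02633 are bright in 10 of 12 libraries, s_02631 in 1, and nondraining lymph node anti-PD-1 replicates 1 and 2 hold 1 and 2 detected sgRNAs.

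On the scale of levels, *Pik3cd* was called in all 4 lymph node groups by limma over all libraries. It changed by 6.17 in draining lymph node IgG (SE 1.14, adjusted p = 0.000404), 8.01 in draining lymph node anti-PD-1 (adjusted p = 4.05e-06), 7.54 in nondraining lymph node IgG (adjusted p = 4.18e-05) and 4.07 in nondraining lymph node anti-PD-1 (adjusted p = 0.0234). *Pik3r1* was called in 3, with changes of 5.16 (SE 0.87, adjusted p = 0.000118), 3.75 (adjusted p = 0.0028) and 3.02 (adjusted p = 0.0258), and not in nondraining lymph node IgG (2.54, adjusted p = 0.0585, with a call in 6 of 41 fits that each left out 1 library). In nondraining lymph node anti-PD-1 the calls hung on single libraries. Without its replicate 3, *Pik3cd* changed by 1.54 (adjusted p = 0.719) and *Pik3r1* by 2.21 (adjusted p = 0.357), and neither was called without any 1 of the 3 T0 libraries, nor *Pik3r1* without replicate 2 (2.48, adjusted p = 0.0744). These calls were common there, since 35%, 28.2%, 6.74% and 8.95% of all genes were called higher in draining IgG, draining anti-PD-1, nondraining IgG and nondraining anti-PD-1, respectively. Without centring, 6 of the 8 changes turned negative, so their direction rests on the nontargeting median. Within these groups *Pik3cd* ranked 5, 1, 1 and 41 and *Pik3r1* 22, 162, 342 and 212 of all genes. Over the IgG groups of all 7 organs both genes differed between organs (limma F-test, F = 8.90 with adjusted p = 8.7e-06 for *Pik3cd* and F = 4.84 with adjusted p = 0.00145 for *Pik3r1*), and so did 79.1% of all genes.

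Nondraining lymph node anti-PD-1 was the most uneven group. The *Pik3cd* level was 2.77, 0.53 and 9.24 and the *Pik3r1* level 0.70, 4.48 and 5.02 in replicates 1, 2 and 3. Of the 10 sgRNAs, 1, 2 and 7 were detected, and 91.6%, 86.4% and 51.3% of all sgRNAs were at the lowest value. The *Pik3cd* level was 3.46 lower than in nondraining lymph node IgG (-3.46, SE 1.14, unadjusted p = 0.0037, adjusted p = 0.140 by limma), the only organ in which it was lower under anti-PD-1, and the groups overlapped. The difference was -2.76 without anti-PD-1 replicate 1, -1.64 without replicate 2 and -5.99 without replicate 3, and it was called in the last case alone of these (adjusted p = 0.000156).

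The other members of the PI3K family in the library had lower values than *Pik3cd* and *Pik3r1* over the 5 IgG organs. Of these 10 genes 0 were called in either direction, where 0% of all genes were called higher and 14.9% lower, with a median change of -0.43 against -0.61 for all genes. Among the other class I catalytic subunits, *Pik3ca*, which is broadly expressed, changed by -0.42, *Pik3cb* by -0.59 and *Pik3cg*, the leukocyte isoform coupled to G proteins, by -1.67 (SE 0.81, limma adjusted p = 0.268). Of the other regulatory subunits, *Pik3r2*, a paralogue of *Pik3r1*, changed by -0.44, *Pik3r3* by 0.27 and *Pik3r5*, a partner of the *Pik3cg* product, by -0.34. The class II genes *Pik3c2a*, *Pik3c2b* and *Pik3c2g* changed by -0.10, 0.15 and -0.50. *Pik3c3*, the class III kinase of endosomal traffic and autophagy, had the lowest value of the family at -2.06 (SE 0.92, adjusted p = 0.181) and fell in lung IgG, by 3.57 (adjusted p = 0.0221). There 375 genes (18%) were called lower.

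Genes that make or remove phosphoinositides were not called lower more often than all genes under IgG outside the lymph nodes. Of 32 genes measured, phosphatases and kinases together with the synthase gene *Cdipt*, 3 were called lower and 0 higher over the 5 IgG organs by limma. There 14.9% of all genes were called lower and 0% higher, and the list median was -0.60 against -0.61 for all genes. *Cdipt*, the phosphatidylinositol synthase that supplies the whole pathway, fell by 6.0 (SE 0.70, adjusted p = 1.06e-09). *Pi4kb*, which makes phosphatidylinositol 4-phosphate at the Golgi, fell by 4.16 (SE 0.67, adjusted p = 1.57e-06), and the 5-phosphatase *Inpp5k* fell by 3.88 (SE 0.79, adjusted p = 0.000102). *Inpp5d*, a 5-phosphatase that acts on the product of PI3Kδ, changed by -1.72 (adjusted p = 0.227) and is given for its role. The highest gene of the list, the myotubularin phosphatase *Mtmr1*, had 0.82 (SE 0.82). In lung IgG 5 of the 32 were called lower, against 18% of all genes, among them the myotubularins *Mtmr14* and *Mtmr3* (-2.86 and -2.35). In peritoneal metastases anti-PD-1 *Pikfyve*, the kinase that makes phosphatidylinositol-3,5-bisphosphate, was also called lower (-2.94), with 13% of genes called lower there.

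Phospholipase C, which splits the substrate of PI3Kδ, and the diacylglycerol kinases, which remove its product diacylglycerol, had 0 of 23 genes called over the 5 IgG organs, against 0% of all genes called higher and 14.9% lower, with a median of -0.51. The highest was *Dgkz*, an inhibitor of diacylglycerol signalling in T cells, at 1.41 (SE 0.76, limma adjusted p = 0.376), next of all genes after *Pik3cd* and *Pik3r1* and called with the lymph nodes left out (adjusted p = 0.0211), and the lowest was *Plcg1*, the phospholipase C of the T cell receptor, at -1.47 (SE 0.79, adjusted p = 0.371). *Dgkg* was called lower in lung IgG (-3.61), 1 of the 23 genes against 18% of all genes.

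**Figure D4:**
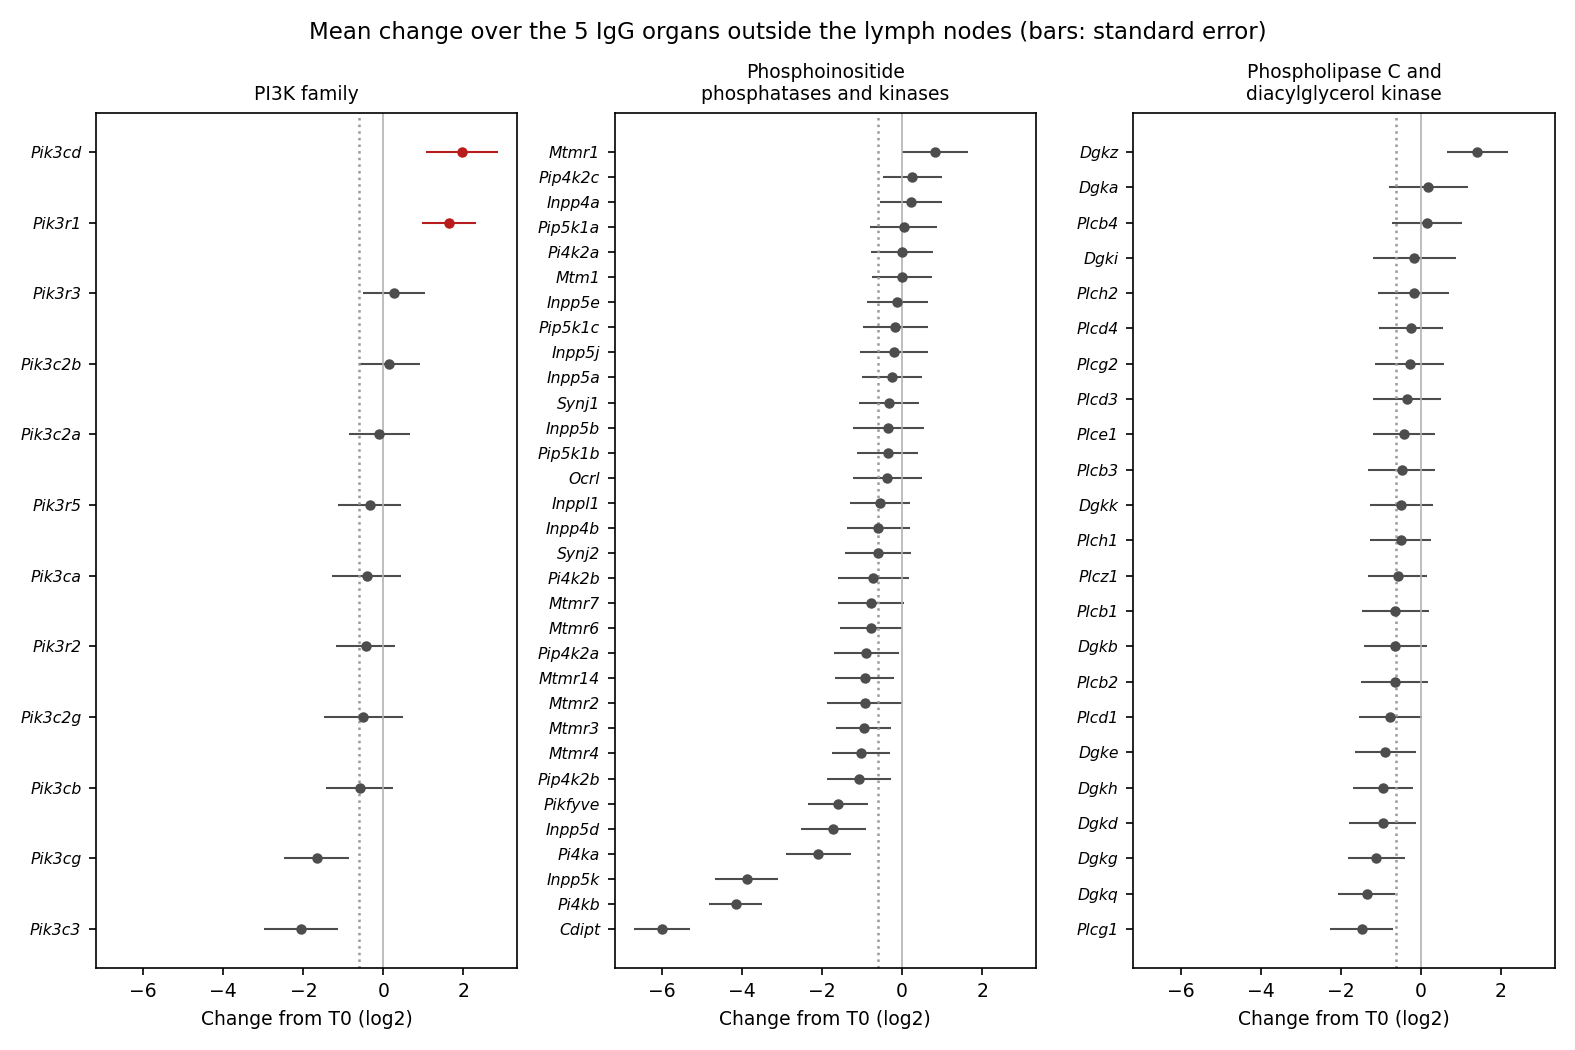
Mean change from T0 over the 5 IgG organs outside the lymph nodes, in log2 units, for the PI3K family, 32 phosphoinositide genes (phosphatases, kinases and the synthase gene *Cdipt*), and 23 phospholipase C and diacylglycerol kinase genes, with the standard error of the limma fit of all libraries as a bar and the median of all genes as a dotted line. *Pik3cd* (1.97) and *Pik3r1* (1.64), in red, lie above the rest of their family, whose highest gene is *Pik3r3* (0.27), and *Cdipt* is the lowest of all at -6.0.

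The patterns of *Pik3cd* and *Pik3r1* over groups were compared with those of all genes by Pearson correlation of the changes from T0, after subtraction of the median gene in each group. The anti-PD-1 values of 4 of the groups had served to select both genes, and each group holds few libraries, so the values are descriptions. Between *Pik3cd* and *Pik3r1*, r was 0.79 over the 10 groups outside the lymph nodes and 0.05 over all 14. The share of genes with as high an r over the 10 groups was not counted. By r over all 14 groups, *Pik3r1* was at rank 1243 for *Pik3cd*, and *Pik3cd* at rank 797 for *Pik3r1*. Over the 14 groups the genes most like *Pik3cd* were *Lipc* (0.89), *Slc35a3* (0.86), *Slc26a9* (0.84), *Dhcr7* (0.84) and *Mthfd1l* (0.83). Those most like *Pik3r1* were *Elovl7* (0.83), *Echdc2* (0.81), *Cryl1* (0.78), *Man1c1* (0.77) and *Slc4a2* (0.77). Both orders include the sparse lymph node groups and compare patterns, not the size of a change. In the IgG organs outside the lymph nodes *Lipc* changed by -1.14 to 0.07 and *Elovl7* by -0.88 to 0.63. Over the 10 groups outside the lymph nodes their r was 0.83 and 0.77.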

How the data were processed

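The sgRNAs integrated in the DNA of sorted T cells were amplified and sequenced. Per the methods, the authors used MAGeCK-VISPR for read counts, normalised these to the nontargeting sgRNAs, corrected batches between organs with ComBat and excluded 2 of 43 samples after quality control, and they deposited the resulting signal. The settings of ComBat are not given in the sources used here. A count test was not run, because the values are no longer whole. Here log2(signal + 1) was centred on the nontargeting median of the library, averaged over 5 sgRNAs and fitted with limma 3.58.1 (R 4.3.3), with 1 mean per group over 41 libraries. P-values were adjusted by Benjamini-Hochberg over 2078 genes or 10640 sgRNAs at a threshold of 0.05. All comparisons with T0 share the same 3 T0 libraries, which also had a part in selecting the genes. Alternatives were other pseudocounts, other centrings, a filter on low sgRNAs, shared lowest values set to 0, the median of the sgRNAs, fewer groups, a replicate block and leaving out single libraries or sgRNAs. The genes, lists and tests were chosen with earlier results of these data known. Named genes are both genes with their sgRNAs, all *Pik3* genes, genes of the other lists called in a tested group outside the lymph nodes or highest or lowest over the IgG organs, the 5 genes most alike in pattern and the top gene of each IgG group. Names outside this rule are *Acsl5*, *Cept1* and *Inpp5d*, chosen after values were seen. A gene of the phosphoinositide list is not reported here.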

Additional observations from a re-analysis of the deposited data

Results flagged for a closer look

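Both genes differed between the 7 organs over the IgG groups (limma F-test, adjusted p = 8.7e-06 for *Pik3cd* and 0.00145 for *Pik3r1*). Both were highest in lymph nodes, where the nontargeting median is at or near the lowest value, and 79.1% of all genes differed by the same test. Over the 5 other organs the adjusted p was 1 for both genes, and 0.485 and 0.582 with the lymph nodes left out of the fit. The deposited values had been corrected for batch between organs, so this cannot show that the organs were alike.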

How the results depend on the processing

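Directions outside the lymph nodes held for both genes under IgG and in peritoneal metastases anti-PD-1 in every setting run, whereas the calls changed. For the mean over the 5 IgG organs, log2(signal + 10) gave 1.94 for *Pik3cd* (limma adjusted p = 0.0302) and 1.59 for *Pik3r1* (0.0102), and centring on the nontargeting mean gave 2.40 (0.0107) and 2.07 (0.0075). Leaving out the lymph nodes gave 1.97 and 1.64, fitting the compared groups alone 1.97 (0.00413) and 1.64 (0.00174), and both were then called. Centring on the median of all sgRNAs gave 2.04 for *Pik3r1* (0.0221), and leaving out the lymph nodes and T0 replicate 3, a setting chosen after seeing the data like the same-number differences, the detection counts and the organ test over IgG groups, gave 1.43 for *Pik3r1* (0.0326). Without 1 library the changes ran from 1.61 to 2.15 for *Pik3cd*, which was called without nondraining lymph node anti-PD-1 replicate 3 (adjusted p = 0.0383), and from 1.43 to 1.81 for *Pik3r1*. Of the 10 tested groups, lymph nodes included, 4 were called for *Pik3cd* and 3 for *Pik3r1* in the main fit. All of these were lymph node groups, where 6.74% to 35% of all genes were called higher. Log2(signal + 10) called 6 for *Pik3r1*, no centring 0 and 0, the compared groups alone 7 and 8, and the median of the sgRNAs 1 for *Pik3r1*. The fit without lymph nodes and T0 replicate 3 holds no lymph node group, and it called 2 of the remaining groups for *Pik3cd*. Of the 10 sgRNAs, 3 were called over the IgG organs without the lymph nodes and 4 with the compared groups alone.

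In the lymph nodes the direction depended on the centring. Uncentred, *Pik3cd* was at -0.47 over both IgG node groups, -1.14 in draining IgG and -3.30 in nondraining anti-PD-1. *Pik3r1* was at -3.48, at -2.15 and -3.44 in draining IgG and anti-PD-1, and at -4.80 and -4.36 in nondraining IgG and anti-PD-1. The *Pik3r1* change over the IgG node groups lost its call with the nontargeting mean (1.86), the compared groups alone (3.85) and the median of its sgRNAs (2.88, and -0.27 in nondraining IgG). Over both antibodies its F between 7 organs, 6.04, fell to 2.64 and 2.21 with the nontargeting mean and the sgRNA median.

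Differences of *Pik3r1* between anti-PD-1 and IgG had no stable sign. In lung the value was 0.0936 uncentred, 1.08 with the sgRNA median, 0.169 without s_02631 and -0.371 to 0.0955 without 1 library. In spleen it was -0.125 uncentred, -0.135 without s_02632, -0.409 without s_02634 and -0.230 to 0.191 without 1 library. In nondraining lymph node it was -0.283 without s_02632 and -0.336 to 1.83 without 1 library. Over 7 organs it was -0.0847 with the sgRNA median, -0.0844 without s_02632 and -0.0872 without s_02634.

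Libraries of 1 replicate number share lowest values, but their deviations from the group means correlated from -0.356 to 0.269 (39 of 248 pairs over 0.1, against 40 of 494 pairs of other numbers), so the number was not taken as a pairing. The values had already been corrected for batch, so this check cannot show that libraries of 1 number are unpaired. With the replicate number as a block, the IgG changes were 1.93 (adjusted p = 0.207) and 1.59 (0.114), and 4 tested groups were called for each gene.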
